A study of Rattus norvegicus with 12 samples.

Results

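The aryl hydrocarbon receptor genes examined here were the receptor *Ahr*, its partner *Arnt*, its repressor *Ahrr*, and the receptor-regulated genes *Aldh3a1*, *Cyp1b1*, *Cyp1a1* and *Tiparp*. The list held 7 genes, matched by symbol to a table of 21556 genes. It found 6 of them, and *Ahrr* was not analysed here. The set was chosen by a measured value, because *Aldh3a1* had been selected on its lower level with menthol than in control cells, and the other genes were added to ask whether other genes of the receptor shared it. For these genes the comparison of menthol with control is therefore given as a description without a test, while genes of the wider lists were tested in it.

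The cells were labelled ND7/23, a hybrid line made by fusing rat dorsal root ganglion neurons with mouse N18Tg2 neuroblastoma cells. They were left untreated (control) or exposed for 6 h to 100 μM menthol, to 100 ng/ml Wnt3a, or to menthol with Wnt3a, with 3 libraries per group and 12 in all. Menthol opens the cold receptor channel TRPM8, and Wnt3a is a ligand of the β-catenin pathway. All 4 groups were 1 cell line, the labels did not say whether the libraries of a group came from separate cultures, and p-values measure only the spread between these libraries. The reads on genes numbered 36914010 to 38836269 per library. Of 10 sensory neuron markers, 9 were below the level needed for a test: the neuronal tubulin gene *Tubb3* had 0 to 6 reads per library, the peripherin gene *Prph* 0 to 8 and the sensory neuron factor gene *Pou4f1* 0 to 4. The tenth, the factor gene *Isl1*, had a mean of 13.2 FPKM. The collagen chain gene *Col1a2*, a fibroblast marker, had a mean of 115 FPKM. The other fibroblast markers had means of 0.0886 (*Lum*) to 6.74 FPKM (*Col1a1*). The 9 low neuronal markers and *Col1a2* went against the neuronal label, while *Isl1* and the low fibroblast markers did not. The identity of the cells was not tested. The reads were assigned to a rat genome, and how mouse transcripts of the hybrid were counted was not given in the sources used here.

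The receptor is a transcription factor of the bHLH-PAS family that is held in the cytoplasm with chaperones, among them Hsp90 and p23 (the *Ptges3* product). On binding a planar aromatic ligand it enters the nucleus, pairs with Arnt and binds DNA with the core letters GCGTG. Genes that it switches on include the monooxygenases *Cyp1a1* and *Cyp1b1*, the quinone reductase *Nqo1*, the aldehyde dehydrogenase *Aldh3a1*, and 2 brakes on the receptor, the ADP-ribosyltransferase *Tiparp* and the repressor *Ahrr*.

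The 250 bases before the annotated start were searched for the core GCGTG and its complement CACGC in RefSeq promoters of the rat build GRCr8, for which 5 of the 7 genes had an entry (*Cyp1b1*, *Tiparp*, *Ahr*, *Ahrr* and *Arnt*). The sequences of *Cyp1b1* and *Tiparp* are shown because these 2 genes gave the differences with Wnt3a described later, in opposite directions. The window of *Cyp1b1* is chr6:21094315-21094564 on the plus strand and that of *Tiparp* chr2:152063519-152063768 on the plus strand, and capitals mark the core in either orientation.
Cyp1b1: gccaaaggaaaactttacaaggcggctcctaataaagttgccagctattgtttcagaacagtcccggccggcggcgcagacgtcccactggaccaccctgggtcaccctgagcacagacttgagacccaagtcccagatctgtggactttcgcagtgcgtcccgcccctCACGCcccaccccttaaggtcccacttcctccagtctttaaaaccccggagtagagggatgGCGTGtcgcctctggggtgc
Tiparp: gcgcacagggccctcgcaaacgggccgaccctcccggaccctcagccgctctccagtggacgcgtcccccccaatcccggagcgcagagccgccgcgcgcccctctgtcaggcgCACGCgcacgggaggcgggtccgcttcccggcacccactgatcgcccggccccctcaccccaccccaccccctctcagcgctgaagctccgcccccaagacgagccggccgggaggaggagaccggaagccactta
In *Cyp1b1* the complement began 81 bases before the start and the core 20 bases before it. In *Tiparp* the complement began 136 bases before the start. *Arnt* held the core at 42 bases, *Ahrr* held it at 142, 117 and 57 bases, and the window of *Ahr* held neither. The core or its complement was thus in 4 of 5 of these promoters, and in 8666 of 33469 rat promoters of the same length (25.9%). The longer form TNGCGTG, which contains the core, was found on either strand in *Cyp1b1* and *Ahrr*, and in 1370 of all promoters (4.09%). A match of letters is a description and does not show binding.

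Levels are given as FPKM, a fragment count divided by the length of the gene and by the size of the library, so that genes can be compared with each other. *Tiparp* was the highest of the 5 genes tested (mean over all libraries 41.1 FPKM), followed by *Aldh3a1* (25.2), *Arnt* (17.8), *Cyp1b1* (6.56) and *Ahr* (1.88). This order held in 12 of 12 libraries, and the ranges of neighbours in the order did not overlap. *Aldh3a1* rested on 1268 to 2373 reads per library, *Cyp1b1* on 1198 to 1630, *Tiparp* on 6136 to 7123, *Arnt* on 2906 to 3096 and *Ahr* on 309 to 443.

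*Cyp1a1*, the classic target by which activity of the receptor is usually read, was near 0. It had 1 read in menthol replicate 1 (0.00972 FPKM) and 0 in the other 11 libraries. A count of 0 allows up to 3 reads, which for this gene was 0.0287 to 0.0302 FPKM depending on the library, so that differences between groups were not detectable at this depth. *Cyp1a1* was not tested.

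**Figure D1:**
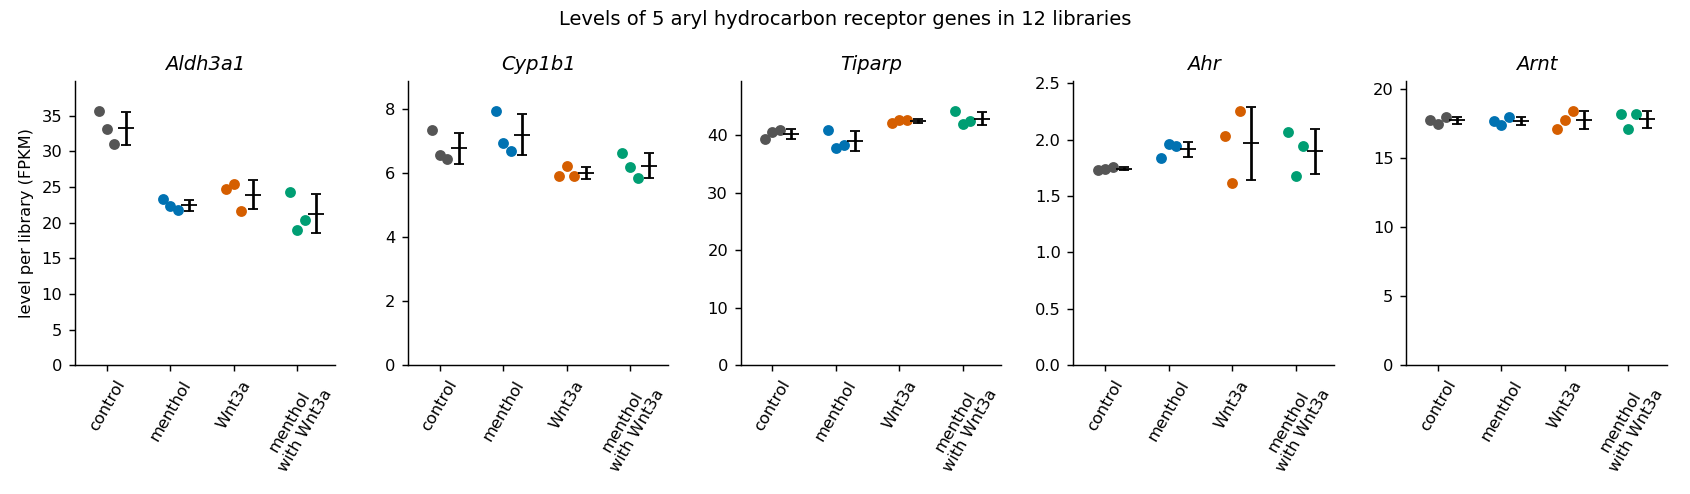
Level of 5 genes in FPKM (vertical axes, starting at 0, a separate scale for each gene) in control, menthol, Wnt3a, and menthol with Wnt3a. Each point is 1 library, and bars give the mean ± SD of 3 libraries. For *Aldh3a1* the 9 treated libraries lie below the 3 control libraries, while the groups of *Arnt* lie on each other.

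*Arnt*, the partner of the receptor, was at 17.8, 17.5 and 18.0 FPKM in control, 17.7, 17.4 and 18.0 with menthol, 17.1, 17.8 and 18.4 with Wnt3a, and 18.2, 17.1 and 18.2 with both. The 4 groups overlapped. *Ahr*, the receptor, was at 1.73, 1.74 and 1.76 FPKM in control, 1.84, 1.96 and 1.94 with menthol, 2.03, 1.62 and 2.25 with Wnt3a, and 2.07, 1.68 and 1.94 with both. The control libraries lay very close together and below the 3 menthol libraries, while both groups with Wnt3a reached below and above control. The log2 difference of *Ahr* between menthol and control was 0.13 (SE 0.115), and that of *Arnt* was -0.0043 (SE 0.040).

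*Aldh3a1* encodes an aldehyde dehydrogenase that oxidises aromatic and medium-chain aldehydes and is abundant in the cornea. It was at 35.6, 33.2 and 31.0 FPKM in control, 23.3, 22.3 and 21.8 with menthol, 24.7, 25.4 and 21.6 with Wnt3a, and 24.3, 19.0 and 20.4 with both. All 9 treated libraries were below every control library, by at least 5.56 FPKM, while the 3 treated groups overlapped each other. The share of all genes with all treated libraries beyond control was not counted here, also for the other genes described so below. All 3 treated groups are set against the same 3 control libraries. The mean was 33.3 ± 2.31 FPKM in control and 22.5 ± 0.741 with menthol (SD, n = 3 each), a difference of -32.5%. With Wnt3a it was 23.9 ± 2.06 and with both 21.2 ± 2.74 (SD, n = 3 each).

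On the scale of log2(FPKM + 0.1), *Aldh3a1* differed by -0.56 (SE 0.082) between menthol and control, the difference on which it was selected. It differed by -0.48 (SE 0.082) between Wnt3a and control and by -0.65 (SE 0.082) between both agents and control. These comparisons share the control libraries and are given side by side without a test. With Wnt3a already present, menthol gave -0.17 (95% interval -0.35 to 0.0043). This was the only comparison of *Aldh3a1* made in libraries that had not served to select it, and it did not pass. Its unadjusted p in limma was 0.0551 and its Benjamini-Hochberg adjusted p over 11451 genes was 0.355. The menthol with Wnt3a libraries were at 24.3, 19.0 and 20.4 FPKM against 24.7, 25.4 and 21.6 with Wnt3a, and only 2 of the 3 were below every Wnt3a library. Without menthol with Wnt3a replicate 1 the log2 difference was -0.27 (adjusted p = 0.125), and without replicate 2 of that group it was -0.098 (adjusted p = 0.702). The menthol difference without Wnt3a and the one with Wnt3a differed by 0.39 on the log2 scale (SE 0.116). That value uses the control and menthol libraries and has no test here.

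The other receptor-regulated genes stood as follows. *Cyp1b1* encodes a monooxygenase of steroids and polycyclic aromatic compounds. It was at 7.34, 6.56 and 6.43 FPKM in control, 7.93, 6.96 and 6.71 with menthol, 5.91, 6.23 and 5.90 with Wnt3a, and 6.64, 6.21 and 5.86 with both. The menthol libraries overlapped the control libraries, and the libraries with Wnt3a alone lay below both groups.

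*Tiparp* encodes an enzyme that attaches ADP-ribose to the receptor and shortens its activity. It was at 39.3, 40.5 and 40.9 FPKM in control, 40.9, 37.8 and 38.2 with menthol, 42.1, 42.7 and 42.6 with Wnt3a, and 44.1, 42.0 and 42.5 with both. Menthol and control overlapped here too, and all 6 libraries with Wnt3a lay above all 6 without it.

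Between menthol and control, *Aldh3a1* stood at -0.56 on the log2 scale and the other 4 tested genes between -0.05 and 0.13. The value was 0.08 (SE 0.073) for *Cyp1b1*, with 0.015 without menthol replicate 1 and 0.14 without control replicate 1, and it was -0.05 (SE 0.035) for *Tiparp*. Of the 4 tested genes other than *Aldh3a1*, 2 were higher and 2 lower with menthol. In 1 of the 4, *Ahr*, the groups did not overlap. Over all 11451 genes tested, menthol and control did not overlap in 15.9%, 0.105% passed an adjusted p of 0.05, and 0.00873% also differed by more than 2-fold. No reading is made from these counts, since this comparison was used to choose the set.

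Menthol on top of Wnt3a is independent of the choice of *Aldh3a1*. In it 0 of the 5 tested genes had groups that did not overlap, against 17.7% of all genes, and 0 of 5 passed the adjusted p by limma, against 0.0524%. At an unadjusted p under 0.05 the count was 0 of 5 by limma, against 14.5% of all genes. The count was 1 of 5 by limma voom on recovered read counts, of which 0 passed the adjusted p. Of all 11451 genes tested, 143 passed the adjusted p in limma voom. The log2 difference was 0.05 for *Cyp1b1* (95% interval -0.107 to 0.208, adjusted p = 0.796) and 0.01 for *Tiparp* (-0.062 to 0.0905, adjusted p = 0.894). It was -0.04 for *Ahr* (-0.291 to 0.205, adjusted p = 0.902) and 0.01 for *Arnt* (-0.0804 to 0.0905, adjusted p = 0.967).

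**Figure D2:**
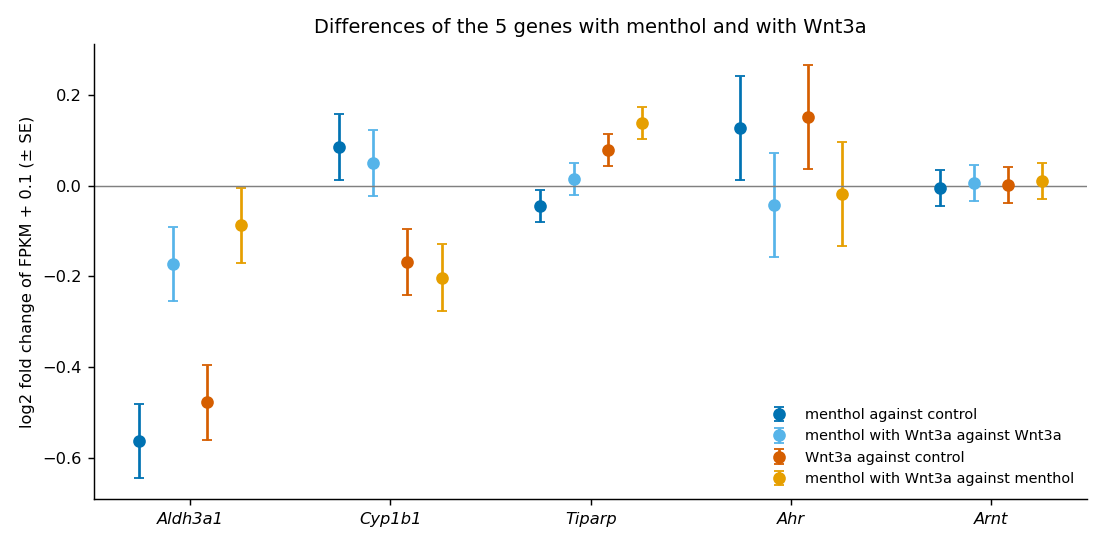
Log2 fold change of FPKM + 0.1 ± SE (vertical axis) of 5 genes in 4 comparisons, each point from 3 against 3 libraries in 1 limma fit. *Aldh3a1* lies at -0.56 with menthol and -0.48 with Wnt3a against control and closer to 0 where the other agent was already present. *Cyp1b1* is below 0 and *Tiparp* above 0 in both Wnt3a comparisons, and *Arnt* lies at 0 throughout.

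With Wnt3a, *Cyp1b1* was lower and *Tiparp* higher than without it, by small amounts that did not pass the limma test. Between Wnt3a and control, *Cyp1b1* differed by -0.17 on the log2 scale (SE 0.073) and *Tiparp* by 0.08 (SE 0.035), and in both genes the groups did not overlap. Their unadjusted p-values in limma were 0.0383 and 0.0445, and their adjusted p-values 0.296 and 0.316, so that neither passed. Without control replicate 1 the value of *Cyp1b1* was -0.11. *Ahr* differed by 0.15 (SE 0.115, limma adjusted p = 0.575), with 0.28 without Wnt3a replicate 2 and 0.055 without Wnt3a replicate 3, and *Arnt* by 0.0011 (SE 0.040, limma adjusted p = 0.993). Of these 4 genes, 2 had groups that did not overlap, against 20.2% of all genes, and 0 passed the adjusted p, against 0.437%. In limma voom 0 of 4 passed as well, against 303 of all 11451 genes tested. At an unadjusted p under 0.05 there were 2 of 4, as in limma, against 15.1% of all genes in limma. Passing with more than 2-fold was reached by 0 of the 4 and by 0.0175% of all genes.

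Between menthol with Wnt3a and menthol, in other libraries, *Cyp1b1* and *Tiparp* were again the 2 whose groups did not overlap. *Cyp1b1* was lower by 0.20 on the log2 scale (log2 difference -0.20, SE 0.073) and *Tiparp* higher by 0.14 (SE 0.035). The unadjusted p-values in limma were 0.0154 and 0.00169, and the adjusted p-values 0.572 and 0.318. *Ahr* (-0.02, SE 0.115) and *Arnt* (0.01, SE 0.040) had limma adjusted p-values of 0.989 and 0.983. Here 2 of 4 genes did not overlap, against 11.3% of all genes, and 0 of 4 passed, against 0.0961%. With both agents against control, 1 of 4 did not overlap (*Tiparp*, 0.09, limma adjusted p = 0.260), against 20.5%, and 0 of 4 passed, against 0.83%. In limma voom too 0 of 4 passed in either comparison, against 33 and 261 of all 11451 genes tested. At an unadjusted p under 0.05 there were 2 and 1 of 4 in limma voom. The same counts held in limma, against 6.72% and 13.5% of all genes. In neither of these comparisons, nor with menthol on top of Wnt3a, did any gene of the whole table pass with more than 2-fold (0 of 11451, 0%).

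As *Cyp1b1* and *Tiparp* each differed the same way in both comparisons, all 6 libraries with Wnt3a were compared with all 6 without, a test added after these values had been seen. *Cyp1b1* was at 5.86 to 6.64 FPKM with Wnt3a and at 6.43 to 7.93 without, and the groups overlapped by menthol with Wnt3a replicate 1 (6.64), which lay above control replicates 2 and 3. The log2 difference was -0.19 (SE 0.052, limma adjusted p = 0.122). *Tiparp* was at 42.0 to 44.1 FPKM with Wnt3a and at 37.8 to 40.9 without, with no overlap, and its log2 difference was 0.11 (SE 0.025, limma adjusted p = 0.062). Neither passed in the limma fit on FPKM. In limma voom on the recovered read counts both did, with adjusted p-values of 0.0278 for *Cyp1b1* and 0.0162 for *Tiparp*. Of all 11451 genes tested, 279 passed in limma voom. Without menthol replicate 1 *Tiparp* also passed on FPKM (0.13, adjusted p = 0.0263). As these values had prompted the comparison, none of its p-values is independent of them. Of the 4 genes, 1 did not overlap and 0 passed in limma on FPKM, against 1.17% and 0.803% of all genes. The sizes were small: *Cyp1b1* was lower by 12.4% (mean difference -12.4%) and *Tiparp* higher by 7.77%.

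The sensory neuron factor gene *Isl1* moved along the same split. It was at 10.8 to 11.4 FPKM in control, 9.28 to 10.8 with menthol, 14.1 to 17.6 with Wnt3a, and had a mean of 15.4 ± 0.427 with both (SD, n = 3). Against control, Wnt3a gave a log2 rise of 0.50 (adjusted p = 0.0121 in limma, SE 0.073). On top of menthol the log2 rise was 0.59 (adjusted p = 0.00531 in limma, SE 0.073). The 10 sensory neuron markers summed to 9.77 to 12.1 FPKM without Wnt3a and 14.7 to 18.4 with it, and *Isl1* made up most of that sum, with the villin relative *Avil* next (mean 0.403 FPKM). The 5 glial markers summed to 0.512 to 0.750 FPKM without Wnt3a and 0.628 to 1.47 with it. The part of either in the differences of *Cyp1b1* and *Tiparp* was not tested.

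The list of 17 receptor targets held 16 genes of the table, of which 11 were tested. It, like the other lists, was drawn up with earlier results of these data known. Without *Aldh3a1*, *Cyp1b1* and *Tiparp*, 8 targets remained. Between menthol and control, 5 of the 8 were higher and 3 lower, with a median log2 difference of 0.08, against -0.0016 over all genes tested. Their differences ran from -0.36 (*Ugt1a6*, a glucuronosyltransferase) to 0.30 (*Serpinb2*, an inhibitor of plasminogen activators), and 0 of 8 passed in limma or in limma voom, with 3 of 8 at an unadjusted p under 0.05 in each, against 9.34% of all genes tested in limma. Between menthol with Wnt3a and Wnt3a, again 5 were higher and 3 lower (median 0.099, against -0.0017), and 0 of 8 passed in limma, with 2 at an unadjusted p under 0.05, against 14.5% of all genes. In limma voom 1 of 8 passed there, against 143 of all 11451 genes tested. With Wnt3a against control and on top of menthol, 0 of 8 passed in limma or limma voom, with 2 and 0 at an unadjusted p under 0.05 in limma, against 15.1% and 6.72% of all genes.

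*Nqo1*, the quinone reductase and the highest of the targets, was at 58.7, 64.2 and 64.8 FPKM in control, in ascending order, and at 59.9, 60.3 and 62.1 with menthol. With Wnt3a it was at 56.8, 57.9 and 60.2, and with both at 62.4, 62.9 and 67.9. Menthol and control overlapped, and the libraries with both agents lay above those with Wnt3a. The log2 difference was -0.04 (SE 0.043) for menthol against control and 0.14 (SE 0.043, limma adjusted p = 0.178) for menthol on top of Wnt3a.

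*Ugt1a6* was, in ascending order, at 1.14, 1.35 and 1.41 FPKM in control, 0.853, 0.891 and 1.26 with menthol, 1.01, 1.18 and 1.36 with Wnt3a, and 0.821, 1.06 and 1.25 with both. It rested on 76 to 133 reads per library, and the groups overlapped in each comparison. Like *Aldh3a1* it was below 0 in both menthol comparisons, by a log2 difference of -0.36 (SE 0.175) for menthol against control and of -0.18 (SE 0.175, limma adjusted p = 0.689) on top of Wnt3a.

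*Slc7a5*, a transporter of large neutral amino acids, was the target that passed in limma voom. It was at 27.8, 28.7 and 29.0 FPKM in control, again in ascending order, 30.2, 30.5 and 32.9 with menthol, 25.8, 26.3 and 26.8 with Wnt3a, and 29.3, 30.8 and 32.3 with both. Every library with menthol lay above every library of its counterpart without menthol, both with and without Wnt3a. The log2 difference was 0.13 (SE 0.043) for menthol alone and 0.22 (SE 0.043) for menthol on top of Wnt3a, the latter with an adjusted p of 0.0722 in limma and 0.00727 in limma voom. The remaining 5 targets untested for low level were *Cyp1a1*, *Cyp1a2* and *Gsta2* at 0 to 1 read per library, *Cyp2s1* at 0 to 4 and *Socs2* at 1 to 14.

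**Figure D3:**
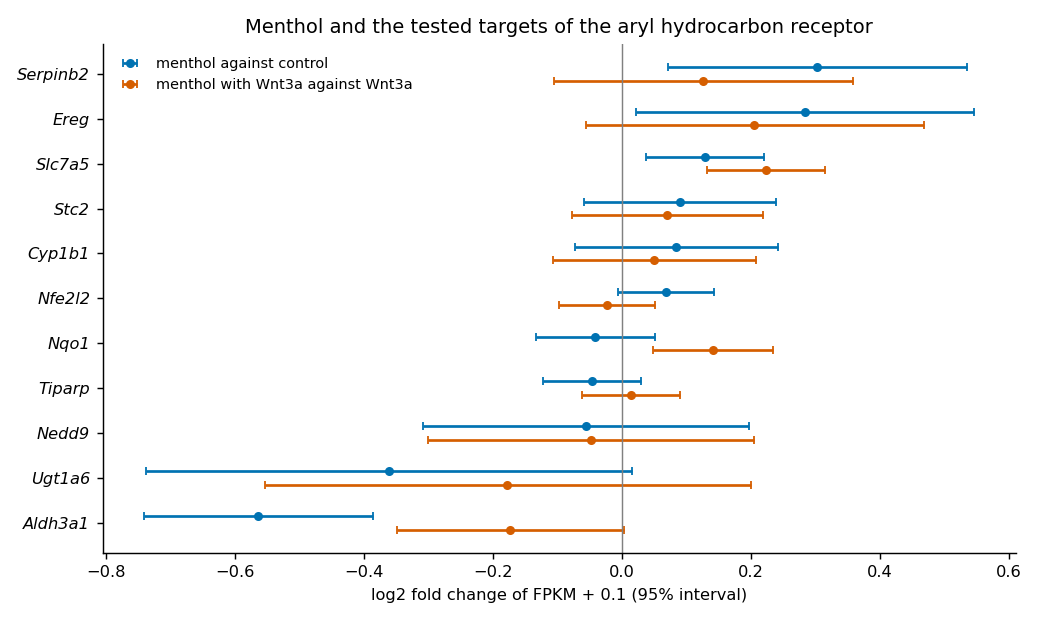
Log2 fold change of FPKM + 0.1 with its 95% interval (horizontal axis) of the 11 tested targets of the receptor, for menthol against control and for menthol with Wnt3a against Wnt3a (3 against 3 libraries each). *Aldh3a1* lies lowest at -0.56 for menthol against control, followed by *Ugt1a6* at -0.36. *Serpinb2*, *Ereg*, *Slc7a5*, *Stc2* and *Cyp1b1* lie above 0 in both comparisons.

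The chaperones that hold the receptor in the cytoplasm were abundant. *Hsp90ab1* had a mean of 954 FPKM, *Ptges3* 261 and *Hsp90aa1* 203, all above *Ahr* at 1.88 and *Arnt* at 17.8. *Arnt2*, the paralog of *Arnt*, had 45 to 81 reads per library and was not tested. Of these 3 chaperone genes 0 passed in any of the comparisons by limma, and *Hsp90aa1* alone had an unadjusted p under 0.05. *Hsp90aa1* was at 192 to 195 FPKM in control, 203 to 212 with menthol, 202 to 207 with Wnt3a, and 206 to 210 with both. All 9 treated libraries were above control, the reverse of *Aldh3a1*, by 0.10 (SE 0.025) on the log2 scale with menthol, by 0.08 (SE 0.025) with Wnt3a and by 0.10 (SE 0.025) with both. The last had an adjusted p of 0.0764 in limma and 0.0424 in limma voom.

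Other factors of the bHLH-PAS family, several of which can share Arnt as a partner, were the second list. It named 18 symbols, with *Bmal1* and *Bmal2* as second names of *Arntl* and *Arntl2*. Of the symbols 15 were in the table and 8 were tested. *Hif1a*, the oxygen-regulated factor, was the highest (158 FPKM), followed by *Arnt*. Without *Ahr* and *Arnt*, 0 of 6 passed in limma or limma voom in the 4 comparisons of menthol or Wnt3a, and the log2 differences with menthol ran from -0.17 to 0.30. Among enzymes of tryptophan breakdown, which make ligands of the receptor, 4 of 10 listed genes were tested and 0 passed in limma or limma voom. The highest were *Kyat1* (4.32 FPKM), which acts on kynurenine, and *Afmid* (1.69 FPKM), which makes it. *Ido1* and *Kynu* had 0 to 4 and 0 to 1 reads per library. At an unadjusted p under 0.05 in limma, the bHLH-PAS factors had 1 of 6 for menthol against control and 2 of 6 for menthol on top of Wnt3a, and the tryptophan enzymes 0 of 4 and 1 of 4, against the same 9.34% and 14.5% of all genes.

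The relatives of *Aldh3a1* in the aldehyde dehydrogenase family were read beside it. Of 20 listed genes 19 were in the table and 12 were tested, 11 of them without *Aldh3a1*. *Aldh4a1* of proline breakdown (129 FPKM), *Aldh9a1* (116 FPKM) and the mitochondrial acetaldehyde enzyme *Aldh2* (61.4 FPKM) were the highest. *Aldh3a2*, of the same subfamily by name, was at 21.0 to 21.6 FPKM in control, 20.7 to 22.1 with menthol, 21.1 to 21.8 with Wnt3a, and 19.8 to 22.0 with both. It overlapped throughout and differed by -0.01 (SE 0.042) with menthol. The 11 relatives ranged from -0.22 (*Aldh3b1*) to 0.10 (*Aldh18a1*) with menthol, 3 higher and 8 lower, with a median of -0.02 against -0.0016 over all genes. In limma 0 of 11 passed in any comparison, with 2 at an unadjusted p under 0.05 for menthol against control and 1 for menthol on top of Wnt3a, against 9.34% and 14.5% of all genes. *Aldh1a3*, an enzyme of retinoic acid synthesis, was too low for a test but lay, like *Aldh3a1*, lower in all 9 treated libraries than in any control library. It was at 0.105 to 0.114 FPKM in control (15 to 16 reads), 0.0425 to 0.0843 with menthol (6 to 12), 0.0220 to 0.0773 with Wnt3a (3 to 11), and 0.0142 to 0.0854 with both (2 to 12). *Aldh1a1*, *Aldh1a2*, *Aldh1b1* and *Aldh1l2* stayed at 4 reads or fewer.

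**Figure D4:**
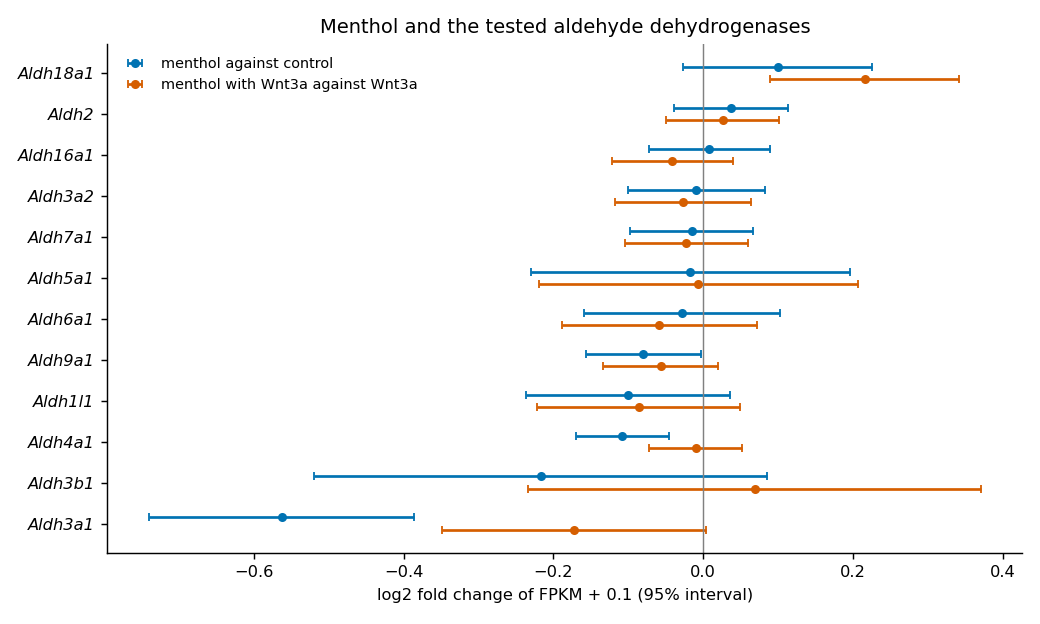
Log2 fold change of FPKM + 0.1 with its 95% interval (horizontal axis) of the 12 tested aldehyde dehydrogenases, for menthol against control and for menthol with Wnt3a against Wnt3a (3 against 3 libraries each). *Aldh3a1* lies at -0.56 for menthol against control, and the other 11 lie between -0.22 and 0.10.

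Markers of other cell types were read in the same libraries. The 6 fibroblast markers summed to 136, 140 and 145 FPKM in control, in ascending order, 124 to 128 with menthol, 129 to 135 with Wnt3a, and 124 to 126 with both. All 9 treated libraries were below control, as for *Aldh3a1*, and 4 of the 4 tested markers were lower with menthol (median log2 difference -0.22). *Col1a2*, a collagen chain gene at a mean of 115 FPKM, made up most of the sum, whereas *Dcn* and *Lum* had at most 22 reads in any library and were not tested. *Dcn* was, unlike the sum, higher on average with menthol (0.200 to 0.283 FPKM) and with Wnt3a (0.215 to 0.325) than in control (0.0716 to 0.211), and with both it was at 0 to 0.258. *Col1a2* fell by 0.16 on the log2 scale with both agents against control (limma adjusted p = 0.0200) and differed by -0.15 (SE 0.029) with menthol. With menthol 0 of the 4 passed in limma, with 3 at an unadjusted p under 0.05 (against 9.34% of all genes). In limma voom 2 passed (*Col1a1* and *Col1a2*), against 60 of all 11451 genes tested. Within control the order of the sums, 145, 140 and 136 for replicates 1 to 3, was that of *Aldh3a1*. Within the Wnt3a group replicate 3 had the highest sum (135) and the lowest *Aldh3a1* (21.6), and the other 2 groups showed neither order throughout. The part of the fibroblast markers in the difference of *Aldh3a1* was not tested.

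The remaining marker lists were low. The highest of them were *Tnnt3* (7.38 FPKM) and *Mb* (0.811) of muscle, *Krt8* (2.19) and *Cdh1* (0.0277) of epithelium, and *Cd68* (1.16) and *Lyz2* (0.350) of immune cells. The 13 muscle markers summed to 7.85 to 11.0 FPKM over all groups, the 7 epithelial markers in the table to 1.48 to 2.86, and the 6 immune markers to 1.17 to 2.13. The corneal keratin gene *Krt12* had 0 to 1 read per library. The sums of these 3 lists in control overlapped those with menthol. For menthol against control 0 of their tested markers passed in limma or limma voom. At an unadjusted p under 0.05 there were 2, both of muscle, against 9.34% of all genes tested in limma. These were *Mb*, the myoglobin gene, and *Tnnt3*, a troponin gene of fast muscle. *Mb* was at 0.0820 to 0.544 FPKM in control, 0.801 to 2.04 with menthol, 0.360 to 1.78 with Wnt3a, and 0.0816 to 1.36 with both, so that menthol and control did not overlap. Its log2 difference with menthol was 1.81 (SE 0.683), with an adjusted p of 0.435 in limma and 0.201 in limma voom. *Tnnt3* was at 6.26 to 8.71 FPKM in control and 5.93 to 6.92 with menthol, with overlap (-0.26, SE 0.107, limma adjusted p = 0.488). Their part in the difference of *Aldh3a1* was not tested.

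**Figure D5:**
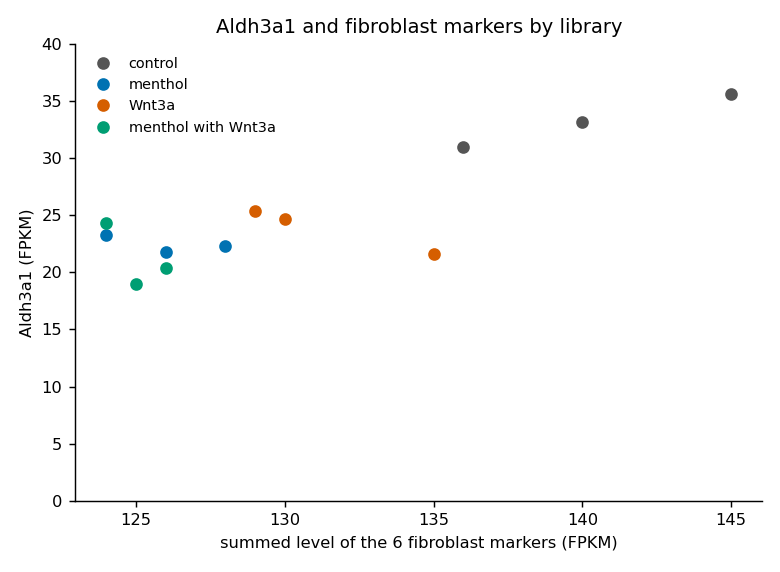
Level of *Aldh3a1* (vertical axis, FPKM, starting at 0) against the summed level of the 6 fibroblast markers (horizontal axis, FPKM), 1 point per library. The 3 control libraries lie apart at the upper right, at 136 to 145 FPKM of the sum and 31.0 to 35.6 FPKM of *Aldh3a1*.

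The genes whose pattern was most like each of the 5 were ranked by Pearson's r on log2(FPKM + 0.1) over the 12 libraries, which include all 4 groups, and the values are descriptions. For *Aldh3a1* they were *Efemp2*, an extracellular matrix protein of elastic fibres (r = 0.947), *Actn1*, the actin crosslinker alpha-actinin (0.931), *Dph1*, an enzyme of diphthamide synthesis (0.921), *Pdlim5*, a scaffold protein bound to alpha-actinin (0.915), and *Eif4ebp3*, an inhibitor of translation initiation (0.912). All 5 were lower in each menthol library than in any control library, and so were their Wnt3a libraries. Their differences were smaller: the log2 difference with menthol was -0.12 for *Efemp2*, -0.18 for *Actn1*, -0.14 for *Dph1*, -0.21 for *Pdlim5* and -0.33 for *Eif4ebp3*. None of the 5 was on the list of receptor targets.

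For *Cyp1b1* the nearest were *Nolc1*, a nucleolar protein (r = 0.932), *Mcm2*, a subunit of the replicative helicase (0.914), and *Ndc1* of the nuclear pore (0.911). For *Tiparp* they were *Kctd9* (r = 0.916), *Prpsap2* (0.913) and the kinase gene *Jak2* (0.866). For *Ahr* they were *Hdhd5* (r = 0.864), *Eid2b* (0.862) and *Fmn1* (0.838), and for *Arnt*, LOC108351200 (r = 0.922), *Abcc10* (0.879) and LOC120093525 (0.871). *Jak2* was at 24.5 to 26.0 FPKM in control, 23.6 to 26.9 with menthol, 27.3 to 29.5 with Wnt3a, and 27.7 to 30.8 with both, so that its 6 libraries with Wnt3a, like those of *Tiparp*, lay above the 6 without.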

How the data were processed

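ND7/23 cells in 4 groups of 3 libraries were sequenced from total RNA, and the labels gave each library's group and replicate number. The authors deposited FPKM values of 21556 genes (paired-end reads, fastp, HISAT, HTSeq counts, rat build mRatBN7.2 per the submitters' processing notes, tool versions not given in the sources used here). FPKM is a relative measure, so that a gain in the most abundant genes reduces the values of the rest. Whole read counts were recovered from the FPKM steps for 21556 of 21556 genes (largest relative distance from a whole number 3.4e-13), and 36914010 to 38836269 reads fell on genes per library. Replicates differed by more than sampling noise in 12 of 12 pairs.

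Values were tested as log2(FPKM + 0.1) by limma 3.58.1 (R 4.3.3). Genes needed 0.5 FPKM on average over the libraries, which left 11451. The fit held all 4 groups, used a trend of the variance and had no replicate block, and p-values were adjusted by the Benjamini-Hochberg method. A gene passed at an adjusted p under 0.05. The fit was tested on simulated data. Fold changes on this scale understate those of low genes. Intervals and floors of 3 reads cover counting error or the spread of these libraries only.

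The members and lists were chosen with earlier results of these data known. Named were the members, the genes of each list that passed in any comparison, the 2 highest of each list, defining genes near 0, the ends of the ranges of the lists (added after the values were seen), and the genes with the highest r (5 for *Aldh3a1*, 3 for each other tested member). *Slc7a5*, *Hsp90aa1*, *Aldh1a3*, *Aldh2*, *Aldh3a2*, *Ereg* and *Stc2* fell outside this rule and were chosen after their values were seen. Alternatives were pseudocounts of 0.01 and 1, a minimum of 1 FPKM or none, libraries centred on their median, only the groups compared, a replicate block, each library left out, and limma voom on recovered counts. Deviations of same-numbered libraries were at most weakly correlated (r from -0.0551 to 0.153, over 0.1 in 1 of 18 pairs). *Ahrr* was not analysed here, and some genes of the lists are not reported here.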

Additional observations from a re-analysis of the deposited data

How the results depend on the processing

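The 27 results (log2 differences of the members and counts of members that passed) were recomputed under at most 20 alternatives each, and 524 of 537 values kept both their sign and their side of the threshold. The sign turned in 10 and 3 passed where the reported value had not. For *Aldh3a1*, menthol against control ranged from -0.61 to -0.51 and menthol on top of Wnt3a from -0.27 to -0.098, the latter with adjusted p-values of 0.125 to 0.702. For menthol against control, *Arnt* (-0.0043) turned to 0.0047 without control replicate 3 and to 0.0089 without menthol replicate 2. For menthol on top of Wnt3a, leaving out 1 library gave -0.0061 to 0.029 for *Tiparp* (below 0 lacking replicate 1 of the group with both agents), -0.17 to 0.054 for *Ahr* (above 0 lacking Wnt3a replicate 3 or replicate 2 of the group with both) and -0.022 to 0.035 for *Arnt* (below 0 lacking Wnt3a replicate 1 or replicates 1 or 3 of the group with both). Libraries centred on their median gave -0.0070 for *Arnt*. For Wnt3a on top of menthol, *Ahr* ranged from -0.082 to 0.062 (above 0 lacking replicate 2 of the group with both). The causes were not tested.

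With a replicate block, *Aldh3a1* with menthol on top of Wnt3a was again -0.17 (limma adjusted p = 0.214), and the block changed no call of a member. Whether the numbers pair the samples was not settled. The r of same-numbered libraries was at most 0.153, but 7 of 12 libraries correlated best with their own number. The number of all genes that passed moved more than the members did. It was 12 for menthol against control, 6 for menthol on top of Wnt3a, 50 for Wnt3a against control, 11 for Wnt3a on top of menthol, 95 for both agents against control and 92 for all libraries with Wnt3a against all without. In the same order it was 60, 143, 303, 33, 261 and 279 in limma voom. Without an FPKM minimum it was 2, 0, 9, 2, 60 and 57, and with only the groups compared 3, 0, 17, 4 and 49 for the first 5. The block gave 21 and 24 for the first 2, and median centring 5 for Wnt3a on top of menthol. Leaving out 1 library gave 0 to 15, 0 to 38, 6 to 291, 3 to 14, 41 to 100 and 55 to 151. Depth limited *Cyp1a1* and the other genes near 0, and 3 libraries per group limited differences of the size of *Ahr*, whose SE was 0.115.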

Other observations

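Within the lists, 2 aldehyde dehydrogenases other than *Aldh3a1* passed in limma voom but not in limma on FPKM. Of all 11451 genes tested, limma voom passed 143 for menthol on top of Wnt3a (*Aldh18a1*) and 33 for Wnt3a on top of menthol (*Aldh4a1*). *Aldh18a1*, an enzyme of proline synthesis, was at 13.6, 14.0 and 14.6 FPKM with Wnt3a and at 15.5, 16.1 and 17.5 with menthol and Wnt3a, in ascending order, without overlap. The log2 difference was 0.22 (SE 0.059), with an adjusted p of 0.142 in limma and 0.0481 in limma voom. *Aldh4a1*, an enzyme of proline breakdown, was at 116 to 124 FPKM with menthol and at 131 to 135 with menthol and Wnt3a. Its log2 difference was 0.14 (SE 0.029), with an adjusted p of 0.197 in limma and 0.0455 in limma voom. Both genes were chosen after their values were seen.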
